A study of Mus musculus with 24 samples.

Results

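The brakes and drivers of the cell cycle were followed through 17 deposited peak lists of mouse fibroblasts. The set held 10 of the 22359 protein-coding genes of the annotation, chosen by name: the brakes Cdkn2a, Cdkn2b, Cdkn1a, Cdkn1b, Trp53 and Rb1, the p53 antagonist Mdm2, and the drivers Myc, Ccnd1 and Ccnd2. Each gene was taken as its body on mm9 with 10 kb added on each side. ChIP-seq for H3K4me3 (a mark of promoters) and for H3K27ac (a mark of active promoters and enhancers) covered 7 cell lines, and ChIP-seq for the homeodomain factor PRRX1 covered the 3 WT lines. Mouse embryonic fibroblasts (MEF) came from C57BL/6 embryos of days 10 to 13 and existed as WT, as KI, from Prrx1 mutant mice in which the study's methods describe a LacZ insertion in the homeodomain, and as SG, treated with CRISPR/Cas9 and a guide RNA against Prrx1. Tumour fibroblasts from the MMTV-PyMT breast cancer model (MMTV-CAF, strain FVB/NJ) and wound-healing fibroblasts taken on day 10 from wounds of C57BL/6 back skin existed as WT and SG, with a non-targeting guide (SgNS) as the WT control of the guide lines. Below, values of the MEF trio are given in the order WT, KI, SG, and those of the MMTV-CAF pair and the wound pair in the order WT, SG. The strain label of the KI line is C57BL/6 and the methods describe a backcross to it, but the protocol in the labels names the mutant mice as 129S, so the background of this line is uncertain. All lines had been immortalised with HPV E6/E7, so no line without these viral genes serves as a comparison here, and strain cannot be told apart from fibroblast type for MMTV-CAF.

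The viral E6 protein directs p53 to degradation and E7 releases E2F factors by binding Rb, so cells that carry both proteins cycle without the usual restraint. Upstream of these proteins, Cdkn2a encodes a pair of unrelated proteins from separate start sites: p16Ink4a, which blocks the cyclin D kinases, and p19Arf, which holds Mdm2 away from p53. The neighbouring Cdkn2b encodes p15Ink4b, a further inhibitor of the cyclin D kinases. Loss of this region is a common route by which cultured mouse fibroblasts become immortal without viral proteins.

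The start sites of Cdkn2a differed in their promoter sequence as well as in their marks. The 250 bases before each start are shown 5′ to 3′ on the minus strand of chromosome 4 in NCBIM37 (mm9), with each CG dinucleotide in capitals, because the results at this gene turn on the difference between the starts.
p19Arf, chr4:88940558-88940807: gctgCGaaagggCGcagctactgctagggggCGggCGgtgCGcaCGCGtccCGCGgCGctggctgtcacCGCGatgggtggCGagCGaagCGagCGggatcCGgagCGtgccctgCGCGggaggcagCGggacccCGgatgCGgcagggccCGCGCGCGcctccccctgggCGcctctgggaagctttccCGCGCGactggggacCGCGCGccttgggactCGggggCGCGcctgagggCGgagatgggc
p16Ink4a, chr4:88928097-88928346: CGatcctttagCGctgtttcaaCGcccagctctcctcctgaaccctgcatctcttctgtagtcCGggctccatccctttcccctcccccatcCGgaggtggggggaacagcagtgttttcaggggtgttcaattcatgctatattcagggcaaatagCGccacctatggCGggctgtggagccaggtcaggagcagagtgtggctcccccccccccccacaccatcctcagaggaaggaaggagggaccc
The p19Arf stretch held 38 CG dinucleotides, a number reached by 1.86% of all annotated start sites. The p16Ink4a stretch held 7, a number reached by 48.5% of start sites. The sequence is that of the reference strain and was not read from the FVB/NJ cells.

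Each group held 1 library, so no difference between a pair of lines could be tested, a comparison of SG with WT over the 3 types was not run, and the values below are descriptions of these libraries. The H3K4me3 lists held 13125 to 29166 regions and the H3K27ac lists 29325 to 61603 summits, with the lowest number of each in MEF KI, where the median −log10 p of an H3K4me3 region was 9.93 against 28.6 in MEF WT. The H3K4me3 medians of MMTV-CAF WT (7.51) and MMTV-CAF SG (8.72) were lower than that of MEF KI. Sequencing depth is not recorded in the lists. H3K4me3 covered a start site of 6 to 9 of 10 fibroblast marker genes (Lum in no list), of 0 or 1 of 8 epithelial genes (Cdh1), of 0 or 1 of 5 endothelial genes (Kdr) and of 0 of 6 blood genes in each line. Col3a1 and Dcn were also uncalled in both wound lines, Thy1 in both MMTV-CAF lines and wound SG, and Thy1, Dcn and Fn1 in MEF KI. The endothelial gene Kdr measured 5528 and 6173 bp in the wound pair, with 7 and 9 H3K27ac summits. Elsewhere it measured at most 1161 bp, with no summit. Prrx1 itself carried an H3K4me3 region in all 7 lines, with widths of 8628, 4558 and 7341 bp in the MEF trio, 13259 and 15484 bp in the MMTV-CAF pair and 4606 and 6092 bp in the wound pair, which does not report on the mutant or edited protein. In bulk material a wider or stronger call may mean more cells with the mark or more mark per cell, and these cannot be told apart.

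All 10 genes carried H3K4me3 at a start site in 6 of the 7 lines, and no locus was without calls in any line. The share of all protein-coding genes with such a region was 52.5% in MEF WT, 50.7% in MEF SG, 51.9% in MMTV-CAF WT, 52.4% in MMTV-CAF SG, 54% in wound WT and 54.7% in wound SG. In MEF KI the region overlapped the start of 4 genes (Cdkn2a, Trp53, Mdm2 and Myc), against 39.6% of all genes. At the other 6 genes the nearest KI region ended or began 62 to 206 bp from the start: 62 bp at Ccnd2, 95 bp at Cdkn2b, 107 bp at Ccnd1, 119 bp at Cdkn1a, 177 bp at Cdkn1b and 206 bp at Rb1. With a margin of 1 kb all 10 genes were called in MEF KI as well, against 50% of all genes. The call at these 6 genes therefore rested on whether the start base itself had to be covered.

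Most of the genes lay among the widest H3K4me3 regions of their list. A region over 4 kb, the width that the study treats as broad, covered a start of 7 genes in MEF WT (4.97% of all genes), 7 in MEF SG (3.56%), 8 in MMTV-CAF WT (15%), 9 in MMTV-CAF SG (12.7%), 7 in wound WT (4.78%) and 9 in wound SG (8.51%). In MEF KI it covered 3 genes (1.48%), Cdkn2a, Trp53 and Myc. Outside MEF KI the median gene of the set stood at percentile 94.7 to 98.7 of width among all genes of its list. Rb1 stood lowest, with 2145 to 2877 bp and percentile 67.9 to 80.0 in the same 6 lists. The median fold enrichment of the called members was 5.74 against 5.62 for all called genes in MEF WT, 10.1 against 9.85 in MMTV-CAF WT and 4.57 against 3.77 in MEF KI, where 4 members were called.

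**Figure D1:**
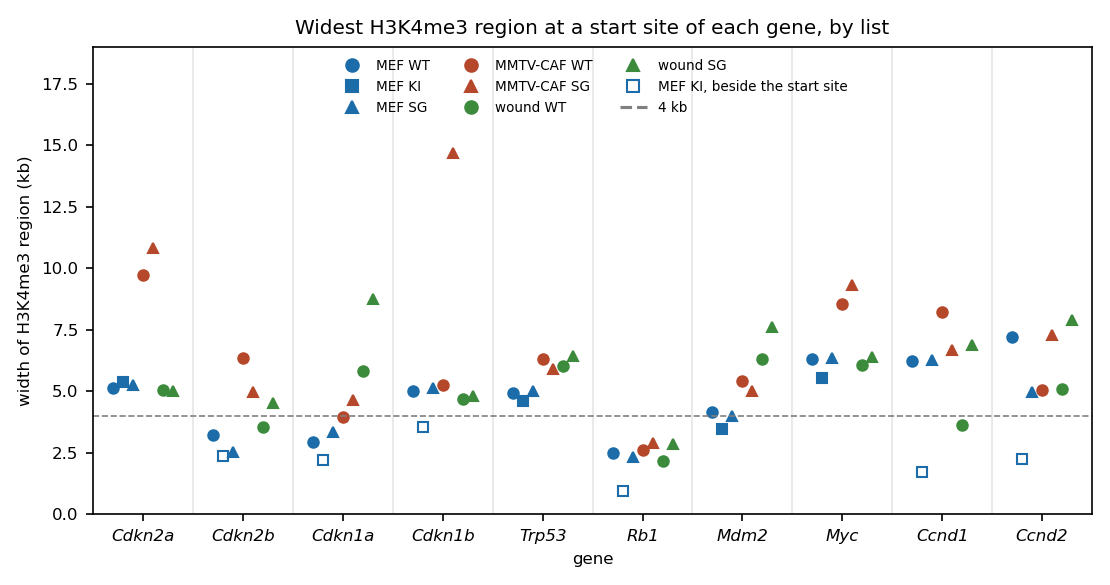
Width in kb of the widest H3K4me3 region at a start site of each gene (vertical axis) in the 7 lists (colour for fibroblast type, shape for genotype). Open squares mark MEF KI regions that lie within 1 kb of the start without covering it, and the dashed line marks 4 kb. Rb1 is the narrowest in the 6 lists other than MEF KI, and Cdkn1b in MMTV-CAF SG reaches 14708 bp.

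Cdkn2a (chr4:88920377-88940557, minus strand) kept a broad H3K4me3 region at the p19Arf start in every line. The region measured 5110 bp in MEF WT, 5393 bp in MEF KI, 5267 bp in MEF SG, 9711 bp in MMTV-CAF WT, 10812 bp in MMTV-CAF SG, 5035 bp in wound WT and 5027 bp in wound SG. Its fold enrichment over input ran from 4.83 in MEF KI to 12.4 in wound SG. The region itself measured 5027 to 5393 bp in the 5 MEF and wound lines and reached 6397 and 7916 bp downstream of the start in the MMTV-CAF lines, against 2426 to 2679 bp elsewhere. By bases covered within 5 kb, which also counts small regions listed apart, the ratio to WT was 1.36 in wound SG (7215 against 5289 bp) and 1.17 for MEF KI, the targeted lines with regions listed apart, and 1.03 for MEF SG. MMTV-CAF SG had 7896 covered bases against 8314 in MMTV-CAF WT. Its width stood at percentile 96.0 to 99.7 of all genes. Over the 7 lists the genes with the most similar width percentiles were Lmo4, Zeb2 and Nrp1, with mean absolute differences of 0.286, 0.361 and 0.472 percentile points.

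The p16Ink4a start, downstream of the p19Arf start, was marked in the MEF and wound lines and bare in the MMTV-CAF lines. H3K4me3 covered it with 4349 bp in MEF WT, 3083 bp in MEF SG, 1510 bp in wound WT and 1922 bp in wound SG, at fold enrichments of 5.43, 6.67, 4.49 and 7.14. In MEF KI a 907-bp region at 5.66-fold lay 108 bp from the start. In the MMTV-CAF pair the nearest region lay 4464 and 4545 bp upstream, towards p19Arf. H3K27ac followed the same split: a summit lay 192 to 221 bp from the p16Ink4a start in each MEF and wound line, with −log10 p of 65.1, 9.78, 99.5, 16.3 and 53.4 in MEF WT, KI, SG and the wound pair, while the nearest summits in MMTV-CAF lay 4598 and 4635 bp away. No call of either histone mark fell on a stretch of 28.3 kb in MMTV-CAF WT and 29.4 kb in MMTV-CAF SG that held the p16Ink4a start and the 3′ part of the gene. The other lines had call-free stretches of 20.7 to 135 kb that reached into the 3′ part of the gene, none of which included the p16Ink4a start. Of 14069 start sites with H3K4me3 within 1 kb in both MEF WT and wound WT, 528 (3.75%) likewise had none in either MMTV-CAF list. An uncalled stretch in a peak list is not a measurement of DNA copy number, and the strain and the tumour origin of the MMTV-CAF lines cannot be told apart here.

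**Figure D2:**
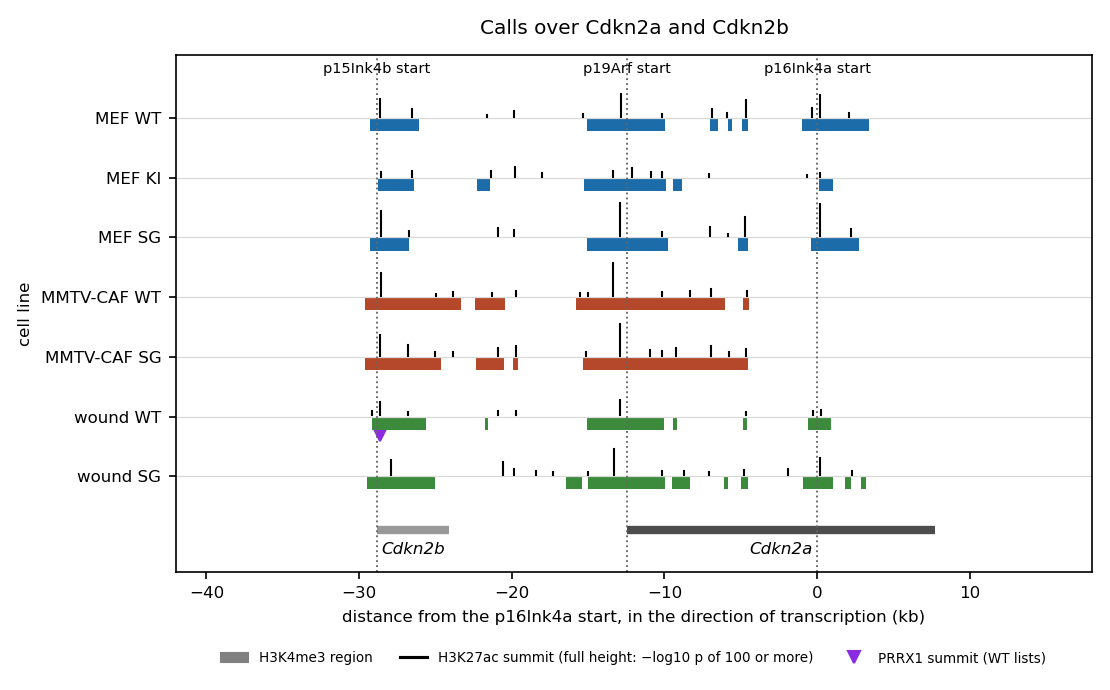
H3K4me3 regions (bars), H3K27ac summits (ticks, height by −log10 p up to 100) and PRRX1 summits (triangles, WT lists) along Cdkn2a and Cdkn2b, as distance in kb from the p16Ink4a start for the 7 lines. The p19Arf start is covered in all lines, and the p16Ink4a start has no call of either histone mark in the MMTV-CAF lines.

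H3K27ac summits were spread over the 5′ part of the Cdkn2a locus and over Cdkn2b, whose loci overlap, and none lay in the 3′ flank of Cdkn2a in any line. The Cdkn2a locus held 11, 10 and 9 summits in the MEF trio, 9 and 10 in the MMTV-CAF pair, and 6 and 13 in the wound pair. The strongest summit of the locus lay within 1 kb of the p19Arf start in 6 lines and at −7362 bp from it in MEF KI. When neighbouring summits were joined into clusters at the usual default distance of the ROSE method, which the study's methods name without a distance, and ranked by summed −log10 p, the cluster shared by both genes ranked 119, 96 and 114 in the MEF trio, 472 and 417 in the MMTV-CAF pair, and 382 and 131 in the wound pair, of 13518 to 19061 clusters. It passed the super-enhancer cutoff (the point where the ranked curve reaches slope 1) in all 7 lines.

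Cdkn2b (chr4:88952198-88956941, minus strand) carried H3K4me3 of 3198 bp in MEF WT, 2545 bp in MEF SG, 6329 bp in MMTV-CAF WT, 4966 bp in MMTV-CAF SG, 3552 bp in wound WT and 4517 bp in wound SG, and 2375 bp beside the start in MEF KI. The Prrx1-targeted line was narrower than WT in MEF and MMTV-CAF (0.796-fold and 0.785-fold in SG) and wider in wound-healing fibroblasts (1.27-fold). Its locus held 4 to 7 H3K27ac summits per line. Further along the chromosome, Mtap carried H3K4me3 in all 7 lines (2453 to 5534 bp) and Klhl9 in all but MEF KI, whereas Ifnb1 and Ifne, which encode interferons, carried none. Dmrta1 was called only in the wound-healing lines (967 and 840 bp) and Elavl2 in all but MMTV-CAF WT.

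Cdkn1a encodes p21, a kinase inhibitor and a classical p53 target, and Cdkn1b encodes p27, a related inhibitor that responds to growth factor withdrawal. At the main start of Cdkn1a (chr17:29230717) the H3K4me3 region measured 2937 bp in MEF WT, 3354 bp in MEF SG, 3956 bp in MMTV-CAF WT, 4661 bp in MMTV-CAF SG, 5802 bp in wound WT and 8766 bp in wound SG, with 2214 bp at 2.97-fold beside the start in MEF KI. The wound-healing lines thus had the widest regions, and in wound SG the same region also covered the annotated starts at 29227924 and 29235152. In wound WT a separate region of 547 bp at 3.23-fold covered the start at 29235152, and the main region lay 637 bp from the start at 29227924. In MMTV-CAF SG a region of 614 bp lay 124 bp from the start at 29227924. The upstream start had 7 CG dinucleotides in the surrounding 1 kb, against 53 at the main start and a median of 27 over 31298 start sites. The H3K27ac summits lay at different places: wound WT had 5 summits, the strongest (−log10 p 54.2) 592 bp after the main start, while wound SG had 2, the stronger (72.3) 782 bp after the upstream start, and none of the 5 WT summits had an SG summit within 500 bp. MEF KI had a single summit with −log10 p 11.3 against 4 in MEF WT, where the strongest reached 59.3.

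Cdkn1b (chr6:134870419-134875531) had a region of 5010 bp in MEF WT, 5148 bp in MEF SG, 5261 bp in MMTV-CAF WT, 14708 bp in MMTV-CAF SG, 4680 bp in wound WT and 4814 bp in wound SG. MEF KI had 3535 bp after the start and 494 bp before it. The 2.80-fold greater width in MMTV-CAF SG stood at percentile 99.2 of all gene ratios in that pair, but it joined stretches that were separate elsewhere: MMTV-CAF WT held another region of 2728 bp starting 5493 bp downstream, and wound SG one of 8546 bp starting 4527 bp downstream. Counted as bases under any H3K4me3 region within 5 kb of the start, the MMTV-CAF SG to WT ratio was 1.28. The locus held 8, 6 and 8 H3K27ac summits in the MEF trio, 8 and 13 in the MMTV-CAF pair, and 9 and 8 in the wound pair, and its cluster ranked as a super-enhancer in every line (rank 60 in MEF WT to 327 in MEF KI).

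Trp53 encodes p53, and Mdm2 the ubiquitin ligase that removes it. Neither promoter was left uncalled in any line. The Trp53 region measured 4928 bp in MEF WT, 4595 bp in MEF KI, 4996 bp in MEF SG, 6324 bp in MMTV-CAF WT, 5905 bp in MMTV-CAF SG, 6016 bp in wound WT and 6426 bp in wound SG. It also covered the start of Wrap53, which is transcribed from the opposite strand, so the calls of these genes cannot be separated, and an internal Trp53 start at chr11:69400393 was covered in no line. The Mdm2 region measured 4171, 3456 and 4001 bp in the MEF trio, 5414 and 5002 bp in the MMTV-CAF pair, and 6325 and 7607 bp in the wound pair. Among MEF the KI line was the narrowest at both genes, yet at 0.932-fold and 0.829-fold of WT they stood at percentile 82.7 and 57.2 of the ratios of all genes. H3K27ac summits at Trp53 numbered 2 to 5 per line, and at Mdm2 7, 2 and 3 in the MEF trio, 3 and 4 in the MMTV-CAF pair, and 6 and 3 in the wound pair.

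Rb1, which encodes the target of E7, had the narrowest start region of the set. The region measured 2483 bp in MEF WT, 2308 bp in MEF SG, 2603 bp in MMTV-CAF WT, 2877 bp in MMTV-CAF SG, 2145 bp in wound WT and 2836 bp in wound SG. In MEF KI it was split into 941 bp after the start and 707 bp before it. The body with flanks spanned 162 kb but held only 2 to 5 H3K27ac summits, and 2 to 4 of them in each line lay within 5 kb of Lpar6, a receptor gene inside an Rb1 intron with an H3K4me3 region of its own (2063 to 3863 bp) in all 7 lines. At the Rb1 start itself a summit was present in 6 lines, with −log10 p of 9.12 to 28.9, and none lay within 1 kb in MEF KI, where the Lpar6 summits reached 42.0. The start lay in the most CG-rich stretch of the set, 151 CG in 1 kb.

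Myc encodes the transcription factor that drives growth and S-phase entry, and its region covered both annotated starts in all 7 lines. It measured 6300 bp in MEF WT, 5542 bp in MEF KI, 6359 bp in MEF SG, 8542 bp in MMTV-CAF WT, 9303 bp in MMTV-CAF SG, 6073 bp in wound WT and 6401 bp in wound SG, at percentile 98.5 to 99.7 of all genes in each list. The Prrx1-targeted lines thus lay between 0.880-fold (MEF KI) and 1.09-fold (MMTV-CAF SG) of their WT line by width, and between 0.880-fold (MEF KI) and 1.15-fold (wound SG) by bases covered within 5 kb. H3K27ac summits at Myc numbered 4, 5 and 3 in the MEF trio, 6 and 9 in the MMTV-CAF pair, and 4 and 6 in the wound pair, with the strongest between −log10 p 32.1 in MEF KI and 119 in MEF SG.

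Ccnd1 and Ccnd2 encode D-type cyclins, the partners of Cdk4 and Cdk6. The Ccnd1 region measured 6245 bp in MEF WT, 6288 bp in MEF SG, 8229 bp in MMTV-CAF WT, 6670 bp in MMTV-CAF SG, 3625 bp in wound WT and 6897 bp in wound SG. The Ccnd2 region measured 7195 bp in MEF WT, 4947 bp in MEF SG, 5040 bp in MMTV-CAF WT, 7295 bp in MMTV-CAF SG, 5074 bp in wound WT and 7914 bp in wound SG. Beside the starts MEF KI had 1693 bp at Ccnd1 and 2252 bp at Ccnd2, and no region upstream of either start within 5 kb. These were 0.271-fold and 0.313-fold of MEF WT, at percentile 2.32 and 3.38 of the ratios of all genes measured within 1 kb of a start. Among the 10 genes Rb1 (0.379-fold) was the only other at least 1.5-fold narrower in MEF KI by this measure, 3 of 10 against 32.6% of all genes. The Rb1 value counts only the wider of the regions on either side of its start, and by bases covered within 5 kb it was 0.664. The MEF KI list was also the shortest, with a median −log10 p of 9.93 against 28.6 in MEF WT. The part of this in the narrower regions was not tested.

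Much of the variation at the cyclins lay upstream of the start, where the same stretch was either joined to the promoter region or listed apart. At Ccnd1 the upstream edge lay between −4237 and −3485 bp from the start in MEF WT, MEF SG, the MMTV-CAF lines and wound SG, and at −607 bp in wound WT, where a separate region of 2305 bp began 1256 bp upstream. At Ccnd2 the edge lay at −4154, −4220 and −4263 bp in MEF WT, MMTV-CAF SG and wound SG, and at −1977, −1970 and −1998 bp in MEF SG, MMTV-CAF WT and wound WT, each of which listed a separate region of 784 to 1493 bp further out. Counted as bases within 5 kb under any region, the ratios to WT at Ccnd1 were 0.786 in MMTV-CAF SG and 1.16 in wound SG, and at Ccnd2 0.895 for MEF SG, 1.19 for MMTV-CAF SG and 1.35 for wound SG, all nearer to 1 than the width ratios except at Ccnd1 in MMTV-CAF SG (width ratio 0.811). MEF KI kept 0.271 and 0.313 by either count. H3K27ac was also sparse there: Ccnd1 held 1 summit in MEF KI (−log10 p 8.26) against 5 in MEF WT (up to 54.7), with none of the 5 within 500 bp of it, and Ccnd2 held 1 (6.88) against 3 (up to 50.4).

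**Figure D3:**
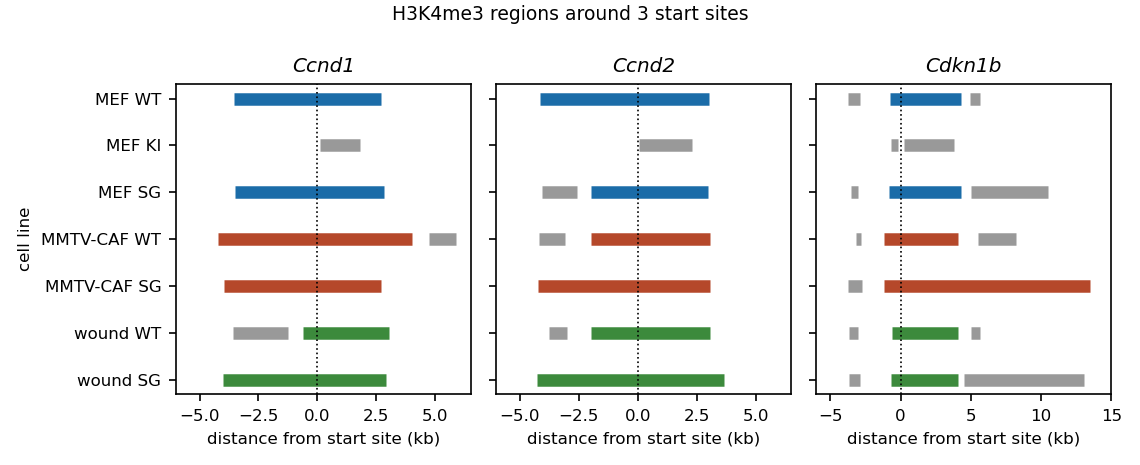
H3K4me3 regions around the start of Ccnd1, Ccnd2 and Cdkn1b in the 7 lines, as distance from the start in kb along the direction of transcription. Coloured bars cover the start and grey bars do not; in MEF KI the cyclin genes keep only a downstream bar of 1693 and 2252 bp.

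Across the set, the width ratio of each Prrx1-targeted line to its WT line was set beside that of all genes. In MEF KI the median was 0.906 over the 4 genes called in both lists (all genes 0.801), and 0.748 over all 10 with the 1-kb margin (all genes 0.767). In MEF SG it was 1.01 (all genes 0.938), in MMTV-CAF SG 1.10 (0.963) and in wound SG 1.24 (1.13). KI and SG in MEF share the WT list, so their ratios are not independent. Single members ranged from 0.688 to 1.14 in MEF SG, from 0.785 to 2.80 in MMTV-CAF SG and from 0.998 to 1.90 in wound SG.

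A change of 1.5-fold was then counted. Of the 4 genes whose MEF KI region still covered the start, a condition that narrowing itself can end, none was at least 1.5-fold narrower (23.5% of all genes) or wider (0.524%), whereas 3 of 10 were narrower with the 1-kb margin (Ccnd1, Ccnd2 and Rb1). None of the 10 in MEF SG was narrower (4.88%) or wider (0.596%). In MMTV-CAF SG none was narrower (5.82%) and 1, Cdkn1b, was wider (4.87%), though by bases covered within 5 kb its ratio was 1.28. In wound SG none was narrower (1.67%) and 3, Cdkn1a (1.51-fold), Ccnd1 (1.90-fold) and Ccnd2 (1.56-fold), were wider (11.4%), of which none reached 1.5-fold by bases covered within 5 kb.

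**Figure D4:**
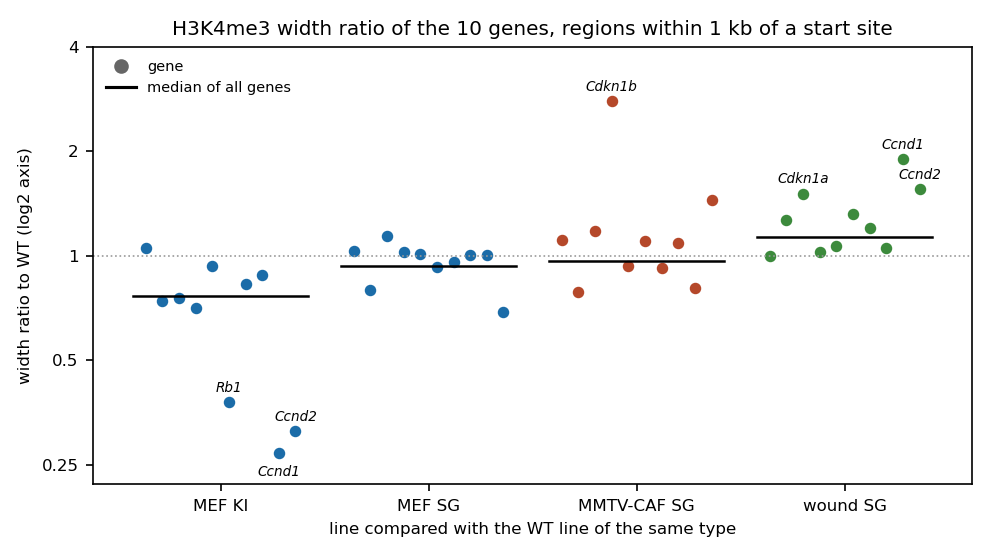
Ratio of H3K4me3 width in each Prrx1-targeted line to the WT line of its type for the 10 genes (points, log2 axis), using the widest region within 1 kb of a start. Black lines mark the median of all genes; Ccnd1 and Ccnd2 lie at 0.271 and 0.313 in MEF KI, and Cdkn1b at 2.80 in MMTV-CAF SG.

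H3K27ac was present at all 10 genes in every line. A summit lay in the gene with its flanks for 61.5%, 52.3% and 62.9% of all genes in the MEF trio, for 61.9% in MMTV-CAF WT and 64.3% in MMTV-CAF SG, and for 58.2% in wound WT and 63% in wound SG. Over the union of the loci the lists held 50, 33 and 44 summits in the MEF trio, 45 and 65 in the MMTV-CAF pair, and 54 and 48 in the wound pair. Relative to the size of each list this was 8.35 to 11.3 per 10000 summits in 6 lists and 16.1 in wound WT, the highest. The members' loci were no longer than usual, with a median of 30.7 kb against 35.4 kb for all genes.

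**Figure D5:**
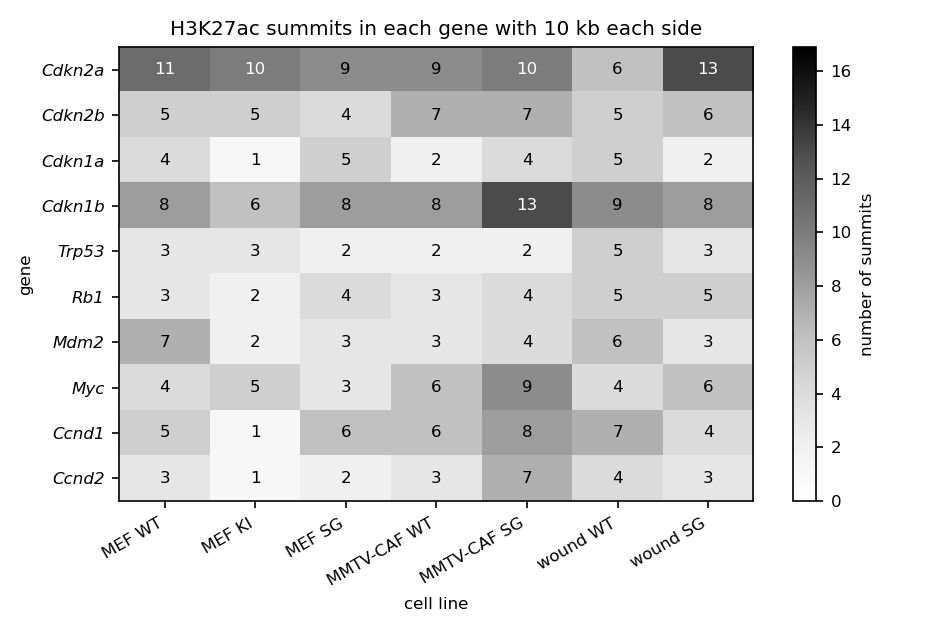
Number of H3K27ac summits in each gene with 10 kb on each side (rows) in the 7 lines (columns), with darker shade for more summits. Cdkn1b holds 6 to 13 and Cdkn2a 6 to 13, and Cdkn1a, Ccnd1 and Ccnd2 hold 1 each in MEF KI.

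The share of WT summits at the members with a summit within 500 bp in the targeted line, was computed with its 95% Wilson interval, which covers counting error only and treats summits of the same gene as independent. It was 46.0% (33.0 to 59.6, 23 of 50) in MEF KI, close to the 47.4% at all genes, and 70.0% (56.2 to 80.9, 35 of 50) in MEF SG, close to 71.4%. In MMTV-CAF SG it was 75.6% (61.3 to 85.8, 34 of 45), against 65.9%. In wound SG it was 44.4% (32.0 to 57.6, 24 of 54), against 68.1% at all genes. With 1 kb in place of 500 bp the wound-healing share was 68.5% (55.3 to 79.3), against 84.3% at all genes, and the MMTV-CAF share 95.6% (85.2 to 98.8), against 77.1%. None of these differences was tested. In wound SG the WT summits were kept least at Cdkn1a (0 of 5) and most at Cdkn2a (5 of 6).

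Super-enhancer clusters lay at a larger share of the members than of all genes in each list. They touched 5 members in MEF WT (10.4% of all genes), 3 in MEF KI (4.05%), 5 for MEF SG (11.4%), 4 in MMTV-CAF WT (10.8%), 6 in MMTV-CAF SG (10.4%), 5 in wound WT (7.38%) and 7 in wound SG (11.9%). Cdkn2a and Cdkn2b share a cluster, so each count holds that cluster for both genes. Cdkn2a, Cdkn2b and Cdkn1b were touched in all 7 lines and Rb1 and Ccnd2 in none. Myc passed the cutoff in MMTV-CAF SG and wound SG (ranks 641 and 684) and not in their WT lines (1596 and 1137). The same held for Cdkn1a in MMTV-CAF SG (1128, WT 5349) and Trp53 in wound SG (1279, WT 1362). In MEF KI, Cdkn1a and Mdm2 missed a cutoff that they passed in MEF WT. The cutoff took in 777 clusters in wound WT and 1390 in wound SG, so the wound WT rank of Myc would pass at the SG number. In the MMTV-CAF pair it took in 1168 and 1149.

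PRRX1 summits were listed at some of these genes in MMTV-CAF WT and wound WT and at none in MEF WT, from lists of 8000, 5698 and 3048 summits. The counts rose with list size, and a difference between fibroblast types was not tested and cannot be read from 10 genes. MEF WT had none at any of the 10 (7.04% of all genes), MMTV-CAF WT had 6 at 4 genes (Cdkn1a, Rb1, Mdm2 and Myc; 22.1% of all genes), and wound WT had 3 at 3 genes (Cdkn2b, Mdm2 and Myc; 16.8%). In MMTV-CAF WT the count was 2 genes at a −log10 p of at least 5 and 0 with lists of equal size, and in wound WT it was 3 and 2. The MMTV-CAF summits at Rb1 (3.56) and Mdm2 (3.14) stood at percentile 1.85 and 0.05 of their list. Mdm2 and Myc had a summit in both MMTV-CAF WT and wound WT, but no summit lay within 500 bp of that of another type. The share of all PRRX1 summits with such a counterpart was not computed, so whether this is usual for these lists is not known. Their −log10 p ran from 3.14 to 8.31, while the lists start just above 3 and have medians of 6.32 to 8.41. No member had a summit at −log10 p of 10 or more. The shares of all genes at these stricter settings were not computed, so such counts cannot be set against a background.

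The strongest of these summits lay at Cdkn2b in wound WT, 209 bp after the start in the non-coding part of an exon (chr4:88956732, −log10 p 8.31), inside the H3K4me3 region and 6 bp from an H3K27ac summit. In MMTV-CAF WT, Myc had summits at −292 bp from the start (6.51), at −322 bp from the downstream start (5.75) and 7876 bp after the downstream start (6.70), the former pair inside the H3K4me3 region, and Cdkn1a had a summit 1580 bp after the main start (5.84). In wound WT, Mdm2 had a summit at −6910 bp from its start (6.32), 148 bp from an H3K27ac summit, and Myc had a summit 4496 bp after the downstream start (5.39).

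The windows of 101 bases around the summits are shown for Myc and Rb1 because they were the members' windows that held TAAT or its reverse complement ATTA, the core of homeodomain motifs. They are on the plus strand of NCBIM37 (mm9), with TAAT and ATTA in capitals.
Myc, MMTV-CAF WT, chr15:61816604-61816704: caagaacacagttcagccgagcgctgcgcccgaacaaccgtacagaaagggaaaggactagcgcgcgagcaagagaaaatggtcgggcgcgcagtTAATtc
Rb1, MMTV-CAF WT, chr14:73693536-73693636: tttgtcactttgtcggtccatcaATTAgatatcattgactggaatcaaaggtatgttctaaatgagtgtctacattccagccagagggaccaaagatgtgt
Myc, wound WT, chr15:61823035-61823135: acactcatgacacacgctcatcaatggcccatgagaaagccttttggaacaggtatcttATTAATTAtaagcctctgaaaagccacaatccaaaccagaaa
Both strands were searched, and TAATTA overlaps TAAT and ATTA. Of all windows of this length, 69.3% in MMTV-CAF WT and 68.3% in wound WT held TAAT or ATTA, against 3 of the 9 at the members. The palindrome TAATTA was in 1 of the 9, at Myc in wound WT, against 25.3% and 31.7% of all windows.

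A PRRX1 summit present in all 3 types, chosen after its values were seen, lay outside the loci, in an intron of Mtap 112 kb downstream of the p16Ink4a start. Its −log10 p was 17.1 for MEF, 52.1 for MMTV-CAF and 7.19 for the wound line, with positions within 500 bp of each other. An H3K27ac summit lay 235 to 709 bp from it in 6 lines and 24085 bp from it in MEF KI. Mtap held 4 H3K27ac summits in MEF KI, against 19 in MEF WT and 14 in MEF SG.

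Genes of the wider pathways were read in the same way. Of 23 genes of the G1/S machinery, 22 or 23 had H3K4me3 at a start in the 6 lines other than MEF KI, where 20 had (all but Ccnd3, Ccna2 and Cdk2), and Ccna2, which encodes cyclin A2, was also uncalled in MEF WT. All 23 were called in both lines with the 1-kb margin. The widest region over the WT lists was that of Cks1b, a kinase subunit, at 10504 bp in MMTV-CAF WT. Of the 4 remaining CDK inhibitors, Cdkn2c was the widest over the WT lists (5174 bp in MMTV-CAF WT, and 7581 and 7936 bp in MEF SG and MMTV-CAF SG), Cdkn2d was called in no line, Cdkn1c in MMTV-CAF WT alone (1245 bp) and Cdkn3 in all but MEF KI. With the 1-kb margin Cdkn1c was uncalled in 2 lines, MEF KI and MMTV-CAF SG, Cdkn3 in none and Cdkn2d still in all 7.

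Of 20 p53 target genes, 19 or 20 were called outside MEF KI and 13 in it (not Gadd45a, Ccng1, Sesn2, Btg2, Perp, Phlda3 and Tnfrsf10b), and all 20 were called there with the margin. Perp, a membrane protein of p53-driven cell death, was uncalled in MEF WT and the MMTV-CAF lines as well and measured 1776 bp in MEF SG and 1460 and 1765 bp in the wound pair. Sesn1 was the widest over the WT lists (6334 bp in MMTV-CAF WT). Of 11 p53 regulators and partners 8 to 10 were called. Trp63 was called in no line, Trp73 in the wound-healing lines alone (3670 and 3316 bp) and Usp7 in all but MEF KI (in all 7 lines with the margin), and Ep300, a coactivator, was the widest over the WT lists (5939 bp in MMTV-CAF WT).

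Of 11 genes of the Myc network all were called outside MEF KI and 7 in it (not Mycn, Mxd1, Mxd4 and Mlx), and all 11 with the margin. Mnt, a Myc antagonist, was the widest over the WT lists (6095 bp in MMTV-CAF WT). All 8 Polycomb genes, whose complexes repress Cdkn2a, were called in every line. Their widest region over the WT lists was that of Ring1, at 9993 bp in MMTV-CAF WT, 4788 bp in MMTV-CAF SG and 1770 bp in MEF WT. Median width ratios of the lists other than the CDK inhibitors ran from 0.669 to 0.821 for MEF KI (all genes 0.801), from 0.906 to 0.994 for MEF SG (0.938), from 0.843 to 1.04 for MMTV-CAF SG (0.963) and from 1.03 to 1.39 for wound SG (1.13), on both sides of the value for all genes.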

How the data were processed

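ChIP-seq of 24 libraries (7 of them inputs), 1 library per group, was deposited as 17 peak lists on mm9. Per the labels and the study's methods, the authors used Trimmomatic for trimming, Bowtie for alignment and MACS2 with input controls for peaks, after removal of duplicates. The deposited H3K4me3 regions carry a fold enrichment ratio, −log10 p and −log10 q, and a score that was not used. The deposited H3K27ac and PRRX1 summits carry −log10 p, 1 summit per peak, so a summit can shift where peaks merge. The PRRX1 lists start just above a −log10 p of 3, and the study's methods describe duplicate PRRX1 ChIP with an IgG control, while 1 PRRX1 library per WT line is labelled. Whether a list pools duplicates is not given in the sources used here. Read depth is not in the lists.

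Start sites of protein-coding transcripts (GENCODE vM1, NCBIM37) within 500 bp were merged, and the widest overlapping region was taken per gene. Analyses used Python 3.11.15, NumPy 2.4.6, pandas 2.3.3 and Matplotlib 3.10.9 and were tested on simulated data. Super-enhancer clusters approximate the study's read-based ranking. The 10 genes and all lists were chosen with earlier results of these data known. All members were named, with the widest and the uncalled genes of each pathway list and the 3 genes most like Cdkn2a. Alternatives changed thresholds, flanks, distances and list sizes.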

Additional observations from a re-analysis of the deposited data

Results flagged for a closer look

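The cyclin genes differed in direction between fibroblast types, which was not tested because each group held 1 library. The H3K4me3 width ratio to WT of Ccnd1 was 1.01 for MEF SG, 0.811 for MMTV-CAF SG and 1.90 for wound SG. That of Ccnd2 was 0.688 for MEF SG, 1.45 for MMTV-CAF SG and 1.56 for wound SG. At both genes an upstream stretch was joined to the start region in some lists and listed apart in others, and by bases covered within 5 kb the ratios were 1.01, 0.786 and 1.16 at Ccnd1 and 0.895, 1.19 and 1.35 at Ccnd2.

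The number of H3K27ac summits over the 10 loci relative to WT was 0.660 for MEF KI, 0.880 for MEF SG and 0.889 for wound SG, but 1.44 for MMTV-CAF SG. The difference in direction between MMTV-CAF and the other types was not tested. With lists of equal size MMTV-CAF SG held 38 summits at the members and MMTV-CAF WT 30, while MEF WT, KI and SG held 34, 33 and 34, and wound WT and SG 52 and 36, so at equal list size MEF KI and MEF WT differed by 1 summit.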

How the results depend on the processing

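Of 138 alternative values, 107 stayed within the limit set for their kind (for counts, 1.5 times the reported count) and 31 moved beyond it. The alternatives with a 1-kb margin for width ratios and broad regions, and with bases covered within 5 kb, were chosen after seeing the data. Each comparison within a fibroblast type has 1 library per group and holds no pairs, and an analysis of WT and SG paired over the 3 types was not run. Without flanks the loci held 23, 19 and 21 H3K27ac summits in the MEF trio, 21 and 32 in the MMTV-CAF pair, and 27 and 24 in the wound pair. With flanks of 50 kb they held 76 in MEF WT, 74 in MEF SG, 73 and 99 in the MMTV-CAF pair, and 74 in wound SG. Cut to lists of equal size, MMTV-CAF SG held 38. In MEF KI, H3K4me3 lay within 1 kb of a start at 10 genes, and joining summits within 5 kb gave super-enhancer clusters at 5. With 5 kb as the width of a broad region, MEF SG had 4 genes. A PRRX1 summit lay at 1 gene in MEF with flanks of 50 kb. In MMTV-CAF it lay at 2 genes at a −log10 p of at least 5, at 0 at 10 or more and at 0 with lists of equal size. In wound-healing fibroblasts it lay at 0 genes at 10 or more, at 1 without flanks and at 5 with 50 kb. For PRRX1 the shares of all genes at these settings were not computed. The median width ratio in MEF KI became 1.09 when widths were divided by the list's median, and 0.748 both with the 1-kb margin and by covered bases; in MEF SG it became 1.08 by the former. Kept H3K27ac summits became 61.8% in MEF KI with lists of equal size, and at 1 kb 82.0% for MEF SG, 95.6% for MMTV-CAF SG and 68.5% for wound SG. Peak lists without read counts limit the precision: whether an uncalled site fell below the caller's threshold by little or by much is not known.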
